A study of Bos taurus with 15 samples.

Results

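The untreated bull testis is described here from the 7 control samples among the 15 samples of the series, chosen by the label that records no treatment and with no comparison to the treated animals. The study set 8 testes of cattle given prednisolone, a synthetic glucocorticoid, at 30 mg per head by mouth each day for 35 days beside these 7, all taken at slaughter. The series title speaks of cows, but the tissue of every sample is testis. Each control sample is total RNA of one testis on one single-colour array, numbered 17, 18 and 20 to 24 after the sample titles. Breed and age were not given in the labels, which give each sample its own number and do not state that each came from a separate animal. The samples are called animals below with that limit.

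The testis holds germ cells at every stage of sperm production inside seminiferous tubules. Spermatogonia divide and renew themselves, spermatocytes go through meiosis, and spermatids replace their histones, first with transition proteins and then with protamines, while building the acrosome and the flagellum. Sertoli cells nurse the germ cells within the tubule, peritubular myoid cells form its contractile wall, and Leydig cells between the tubules make testosterone and the hormone INSL3. Vessels, connective tissue and resident macrophages fill the rest of the space, and the rete testis and its ducts carry the sperm away. In RNA of whole tissue, fewer cells of a type and less RNA per cell cannot be told apart.

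A level is the log2 of a probe's processed signal minus that of the 75th percentile of its array, so that a gene at 0 lies at that percentile and 1 unit is a 2-fold difference. Brightness also depends on the probe itself, so the order of genes given below is an order of signal and not of transcript amount. The arrays held 21475 probes, and 16319 of them could be given the symbol of 1 of 14691 genes. The 75th percentile of the signal lay between 1220 and 2350 units across the arrays, and 78.3% to 85.3% of probes were well above background. Controls 17, 18 and 23 were scanned on one day, 20 and 22 on another and 21 and 24 on another again, and each of the pairs 17 and 18, 20 and 22, and 21 and 24 shared a slide. Control 17 stood apart from the rest: over all 21475 probes its profile correlated with those of the other animals at r = 0.962 to 0.976. The other 6 correlated with each other at 0.984 to 0.990. These correlations run across probes, detected or not, which are not independent replicates. Control 17 gave 39.0% of all squared deviations from the gene means over the genes well above background on all arrays. The spread over all genes is therefore given with and without it. So is the SD of a single gene where leaving it out lowers that SD by more than 1.5 times.

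The most brightly measured gene was PRM1, the protamine that packs DNA in the sperm head, at a mean level of 7.78 ± 0.28 (SD, n = 7). Its levels were 7.77 in control 17, 7.62 in 18, 7.48 in 20, 8.22 in 21, 7.95 in 22, 7.47 in 23 and 7.96 in 24. A spot of its probe was saturated on the arrays of controls 17 and 18, so neither the levels there nor the range of 0.74 log2 units between the animals is exact. With a normexp background correction PRM1 averaged 6.97, below DNAAF1 at 7.35, COX3 at 7.34 and TUBB4B at 7.2, so its first place depends on that choice. TNP2, a transition protein that precedes the protamines, averaged 6.39 and ranged from 5.58 in control 17 to 7.04 in control 23. H1-10, a linker histone, averaged 6.62, with control 20 at 7.14 and the other 6 between 6.39 and 6.70.

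Genes of the sperm tail were next to the protamine at the top of the order. DNAAF1, which is needed to assemble the dynein arms of cilia and flagella, reached a mean of 7.43 ± 0.32 and ranged from 7.07 to 7.96. ODF2, a protein of the outer dense fibres that stiffen the tail, averaged 7.17, with a lowest value of 6.51 in control 17, a median of 7.12 and a highest value of 7.89 in control 23. The tubulin TUBB4B averaged 7.15 and again had its lowest value in control 17, at 6.52, and its highest in control 23, at 7.54. ODF2 and TUBB4B each had another probe, and these read levels below 0 on every array, so the height of a gene in this order holds for its brightest probe.

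Other germ cell genes in the leading 25 were OAZ3, the spermatid form of ornithine decarboxylase antizyme, at 6.64 ± 0.38, and DKKL1, a protein of the acrosome, at 6.34 ± 0.37. IZUMO4, a relative of the sperm protein that binds the egg, stood at 6.65 ± 0.26. GPX4, a selenium enzyme that also serves as a structural protein of the sperm midpiece, averaged 6.58 and ranged from 6.02 in control 17 to 7.13 in control 23. GSTM3, a glutathione transferase, averaged 6.93 ± 0.18. In OAZ3, DKKL1, IZUMO4, GPX4, GSTM3, ODF2, TUBB4B and TNP2 alike, control 23 had the highest value and control 17 the lowest. PRM1 did not share this order, with control 23 lowest at 7.47 and control 17 at 7.77. DNAAF1 was highest in control 23 but lowest in control 18, at 7.07. PABPC1, described below with the genes of protein synthesis, had the same order, at 6.2 in control 17 and 6.95 in control 23. Across the leading 25 genes control 23 was highest in 14, and control 17 was lowest in 10 and highest in 7.

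The mitochondrial genome supplied 4 of the leading 25 genes. COX3, a subunit of cytochrome oxidase, averaged 7.42 and was among the steadiest genes measured, with values from 7.32 to 7.50. COX2 averaged 7.05 ± 0.21, COX1 averaged 6.89 ± 0.23, and ATP6, a subunit of ATP synthase, averaged 6.57 ± 0.22. COX1 was highest in control 17, at 7.30, and lowest in control 21, at 6.54.

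Somatic cells were represented near the top by the products of Leydig and Sertoli cells. INSL3, the insulin-like peptide of Leydig cells that acts in testicular descent and in germ cell survival, had a mean level of 7.03 ± 0.19. Its lowest value was 6.68 in control 18, its median 7.03 and its highest value 7.25 in control 21, with control 17 inside the range of the others at 7.18. The Sertoli cell products PTGDS, a prostaglandin D synthase, and CLU, clusterin, both averaged 6.53. PTGDS was highest in control 17, at 7.17 against 6.17 to 6.79 in the other 6 animals. TIMP2, an inhibitor of matrix proteases, averaged 6.77 ± 0.25.

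Genes of protein synthesis were also among the leading 25. RPLP0, RPS10, RPL21 and RPL18, all coding for ribosomal proteins, and PABPC1, which binds the poly(A) tail, had means between 6.34 and 6.58. Among the 100 genes of highest level, 25 were ribosomal proteins, which make up 0.511% of the genes named, and 10 belonged to the list of spermatid and sperm genes, which makes up 0.422%. These 10 were PRM1, ODF2, OAZ3, TNP2, DKKL1, SPATA6, CABYR, HMGB4, TNP1 and GSG1. The same 100 held PTGDS, CLU and CST3 of the Sertoli list, and INSL3 alone of the Leydig list. The order at the border was close, with the 25th gene at 6.34 and the next at 6.33.

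**Figure D1:**
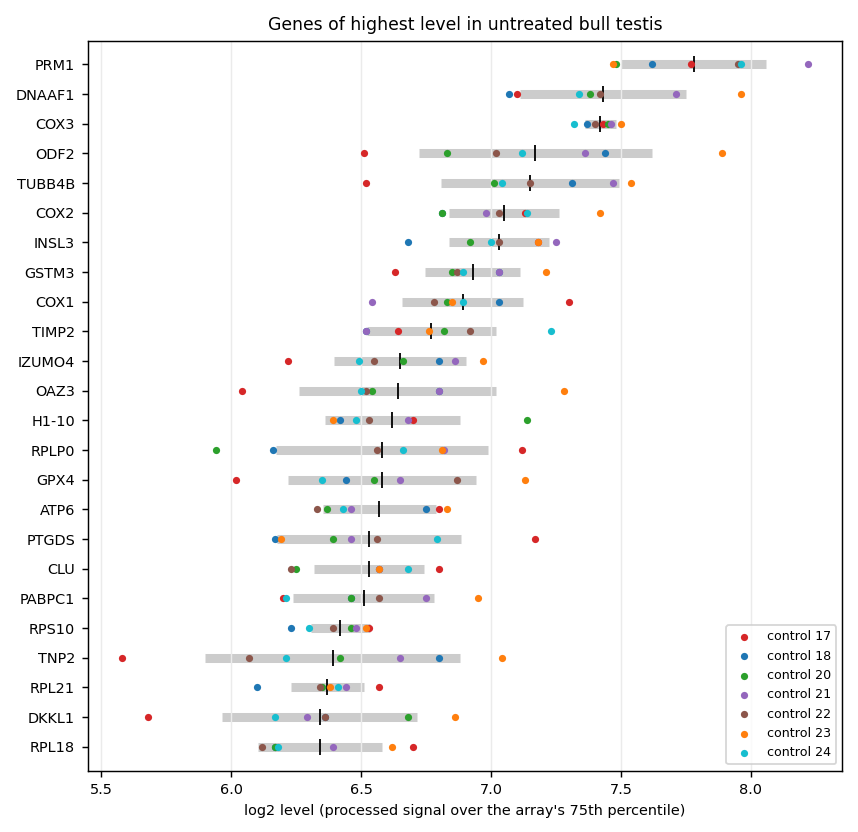
Levels of 24 of the 25 genes of highest mean level in each of the 7 control animals, on the log2 scale relative to the array's 75th percentile. Black ticks are means and grey bars span 1 SD on each side; PRM1 lies between 7.47 and 8.22, and control 17 is lowest in 9 of the genes drawn, among them ODF2, TNP2 and DKKL1.

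Across all genes, 11748 of 14691 (80%) were well above background on all 7 arrays, and 1331 (9.06%) were undetected, meaning that no probe of the gene was well above background on any array. The other 1612 were measured on some arrays only. These calls describe the limit of the arrays: an undetected gene has only an upper bound. Controls 17 and 18, which shared a slide, had the largest shares of probes above background, at 84.8% and 85.3% against 78.3% to 80.9%. Genes above background on a single array numbered 148 in control 17 and 155 in control 18, and 2 to 8 in each of the other animals. Counting a probe where any of its spots passed, in place of most of them, left 808 genes undetected, and the scanner's weaker flag for positive signal left 448.

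Of the spermatogonial list, 11 of 15 measured genes were well above background on all 7 arrays, against 80% of all genes, and the median level of the list was -2.05, against -1.70 over all genes. DDX4, an RNA helicase of the germ line, was the brightest, at 2.38 ± 0.32, with control 23 at 3.04 and the other 6 between 2.09 and 2.45. DAZL, an RNA-binding protein of germ cells, had 0.21 ± 0.46, with an SD of 0.177 without control 17; control 17 stood at -0.76 and the others between 0.18 and 0.64. UCHL1, a ubiquitin hydrolase of spermatogonia, averaged -0.33, and SOHLH2, a transcription factor of differentiating spermatogonia, -0.56. Among factors of the stem cell state, GFRA1, the receptor of the niche factor GDNF, averaged -6.68 and SALL4 averaged -6.74. Each was well above background on 4 arrays. LIN28A and BCL6B were undetected. These genes were named for their spread or for being undetected, so they do not stand for the other stem cell factors of the list. RET, the signalling partner of GFRA1, ranged from -4.49 to -3.07 in the other 6 animals and reached -1.78 in control 17.

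Of the meiotic list, 23 of 26 genes (88.5%, against 80.0% of all genes) were measured on all arrays, with a median level of -0.67. STAG3, the cohesin subunit of meiotic chromosomes, was the brightest at 4.82 ± 0.25, from 4.41 in control 17 to 5.17 in control 23, although its other probe lay between -3.07 and -2.38. SYCE1, a part of the synaptonemal complex, averaged 3.37; it stood at 2.53 in control 17 and between 3.27 and 3.66 in the others. HSPA2, the heat shock protein of spermatocytes, averaged 3.33 ± 0.31, and MAEL, which works in the silencing of transposons, 3.15 ± 0.33. PIWIL1 and TDRD1, of the piRNA pathway, lay near the 75th percentile at -0.44 and -0.61. Both were lowest in control 17, PIWIL1 at -1.65 against -0.58 to 0.12 and TDRD1 at -1.57 against -1.25 to 0.25. REC8, another meiotic cohesin subunit, was well above background on 1 array, and MYBL1, a transcription factor of spermatocytes, was undetected.

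The list of spermatid and sperm genes had 56 of 62 measured members on all arrays (90.3%, against 80.0% of all genes). Its median level was 3.14, against -1.70 over all genes. GAPDHS, one of its most variable members and the sperm form of glyceraldehyde phosphate dehydrogenase, averaged -3.19, with values from -4.29 to -2.45. CATSPER3, of the sperm calcium channel, averaged -0.24 and TEKT5, of the tail filaments, -0.60, and both were lowest in control 17. Undetected were PRM2, the second protamine, which is a minor one in bull sperm, SPAM1, the sperm hyaluronidase, CATSPER4, CAPZA3 and SPATA19. The median levels of the 3 germ cell lists thus ran from -2.05 for spermatogonia through -0.67 for spermatocytes to 3.14 for spermatids, with the limit that levels of different probes are set side by side. PRM1, STAG3 and DDX4 of these lists were well above background in every animal labelled testis.

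All 28 measured Sertoli cell genes were detected, 26 of them on every array (92.9%, against 80.0% of all genes), with a median level of -0.19. After PTGDS and CLU the brightest were CST3, cystatin C, at 5.92 ± 0.35, and FATE1, at 5.24 ± 0.19. TF, transferrin, the iron carrier that Sertoli cells supply to germ cells, averaged 2.36, but control 17 had 4.28, and the other 6 lay between 1.84 and 2.30. KRT18, a keratin of immature Sertoli cells and of epithelia, stood at 1.26 in control 17 and between -1.68 and -0.75 in the others. GATA1, a transcription factor of Sertoli cells, was well above background on 3 arrays.

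Leydig cell genes were measured on all arrays in 13 of 18 cases (72.2%, against 80.0% of all genes), with a median of -0.91. Undetected were 2 of the 18 (11.1%, against 9.06% of all genes). CYP17A1, the enzyme that makes androgens from pregnenolone and progesterone, averaged 2.69 and ranged from 2.40 to 3.06. FDXR, which feeds electrons to the first steroidogenic enzyme, averaged 1.93 ± 0.18, and CYB5A, the cofactor of the CYP17A1 lyase reaction, 1.88 ± 0.31. Control 17 lay within the range of the other animals in CYP17A1 and CYB5A, and in FDXR its 1.68 lay just under the 1.74 of control 20. LIPE, the hormone-sensitive lipase, was the member with a low value in control 17, at 0.43 against 1.48 to 2.55. The receptors lay low, LHCGR, for luteinizing hormone, at -5.32 and PRLR, for prolactin, at -6.10, each on 6 arrays. SCARB1, which takes up cholesterol from lipoproteins, and CYP11B1, an enzyme of the adrenal cortex, were undetected.

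Most genes of the tubule wall and the stroma were measured on all arrays, at 88.2% to 94.1% of small lists, against 80.0% of all genes. The peritubular and smooth muscle list had 15 of 17 genes on all arrays and no undetected gene, and its brightest members were ACTA2, smooth muscle actin, at 3.07 ± 0.77, MYLK at 2.91 ± 0.62, MYH11 at 2.28 ± 0.56 and MYL9 at 2.24 ± 0.54. Without control 17 the SDs of these 4 genes were 0.395, 0.238, 0.342 and 0.195 in the same order. The matrix list had 25 of 28 on all arrays, led by MGP, matrix Gla protein, at 4.82 ± 0.65, SPARC at 4.17 ± 0.64, BGN, biglycan, at 2.07 ± 0.46 and DCN, decorin, at 1.46 ± 0.90. Without control 17 the SD was 0.311 for MGP, 0.385 for SPARC and 0.307 for DCN. DCN had another probe whose levels, from -1.92 to -0.70, did not follow the first (r = 0.076 over the 7 arrays). The endothelial list had 16 of 17 on all arrays and a low median of -3.17; EGFL7, a factor secreted by endothelium, averaged 0.97, and SELE, the selectin of activated endothelium, was undetected.

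Among immune cells, the list of macrophages and granulocytes was the brightest, with a median of -0.85. On all arrays were 17 of its 19 genes (89.5%, against 80.0% of all genes). AIF1 averaged 2.98 ± 0.43, CD14, the lipopolysaccharide co-receptor, 2.79 ± 0.36 (SD 0.230 without control 17), and C1QA, of the first complement component, 2.12 ± 0.69. Lymphocyte genes lay lower, with a median of -3.10 and 16 of 19 on all arrays (84.2%, against 80.0% of all genes). CD79A, of the B cell receptor, averaged -1.20 and PTPRC, the common leukocyte antigen, -1.57. AIF1, CD14 and S100A12 were lowest in control 17, while C1QA, C1QB and C1QC were highest there, so the members did not move together. S100A12, a granulocyte calgranulin, stood at 0.21 in control 17 and between 1.14 and 1.34 in the other 6. Of 5 mast cell genes 4 were on all arrays (80.0%, the share of all genes). Among them were MRGPRX2, the receptor for basic secretagogues, at -3.25 ± 0.22 and the tryptase TPSB2 at -3.16 ± 0.27.

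Epididymal genes had 1 of 7 measured members on all arrays, CES5A (14.3%, against 80.0% of all genes). ADAM7, CRISP1 and LCN9 were undetected (42.9%, against 9.06% of all genes). ELSPBP1, a sperm-binding protein of the epididymis, was at -1.21 in control 17, -0.33 in 18, -1.18 in 20, -6.73 in 21, -5.77 in 22, -1.50 in 23 and -3.13 in 24. Controls 21 and 22 lay more than 2 units under every other animal. It was outside the ranking by spread because it was well above background on 6 arrays. CES5A, a carboxylesterase, averaged -4.24 ± 0.42, with an SD of 0.205 without control 17. RNASE10 was at -4.17 in control 17 and between -7.43 and -6.12 in the others, and was well above background on 3 arrays. Blood cell genes had 5 of 8 members on all arrays (62.5%) and adipocyte genes 6 of 9 (66.7%), against 80.0% of all genes.

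The lists of other organs and of cytokines had medians from -8.40 to -1.59, and from -3.92 to -1.32 with normexp, so the depth of the low lists holds only for the background correction used. Lung genes were undetected in 4 of 5 cases. Pituitary genes were undetected in 5 of 8 cases (GH1, LHB, FSHB, CGA and POU1F1), placental genes in 7 of 18, milk protein genes in 3 of 6 and cytokines in 12 of 28, against 9.06% of all genes. The share was lower and nearer to that of all genes for other organs, with 1 undetected of 10 eye genes, 1 of 10 ovary and oocyte genes, 1 of 10 skin and hair genes and 1 of 9 pancreas genes. It was 2 of 13 for brain, 2 of 12 for muscle, 3 of 14 for liver, 2 of 7 for kidney and 3 of 9 for gut. Eye genes were on all arrays in 80.0% of cases, as were all genes. The undetected cytokines included IL2, IL4, IL6, IL17A and CXCL8, while CCL5, a chemokine of T cells, averaged 1.35 ± 0.48. Olfactory receptors, a family chosen after results were seen, were undetected in 167 of 242 cases (69.0%). Of the 2 Y-linked genes measured, ZFY was on all arrays at -2.77 ± 0.31 and SRY, the sex-determining gene, was undetected.

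Some genes known from other organs gave clear signal in every animal. PMEL, a melanosome protein, averaged 2.28 ± 0.43, CRYBB2, a lens crystallin, 2.18 ± 0.39, GRIN1, a glutamate receptor subunit, 1.96 ± 0.41 (SD 0.245 without control 17), and POMC, the precursor of corticotropin, 1.04 ± 0.15. CSN2, beta-casein, read 0.44 ± 0.14 on one probe and was well above background on no array on its other probe, which lay between -9.66 and -8.03. KRT14, a keratin of basal skin cells, likewise averaged -1.25 on one probe, while its other probe was well above background on 1 array, so these levels rest on the probe chosen. PAG7, a placental glycoprotein gene, averaged 0.84 and ranged from 0.20 to 2.08, and its other probe lay between -7.07 and -4.89.

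**Figure D2:**
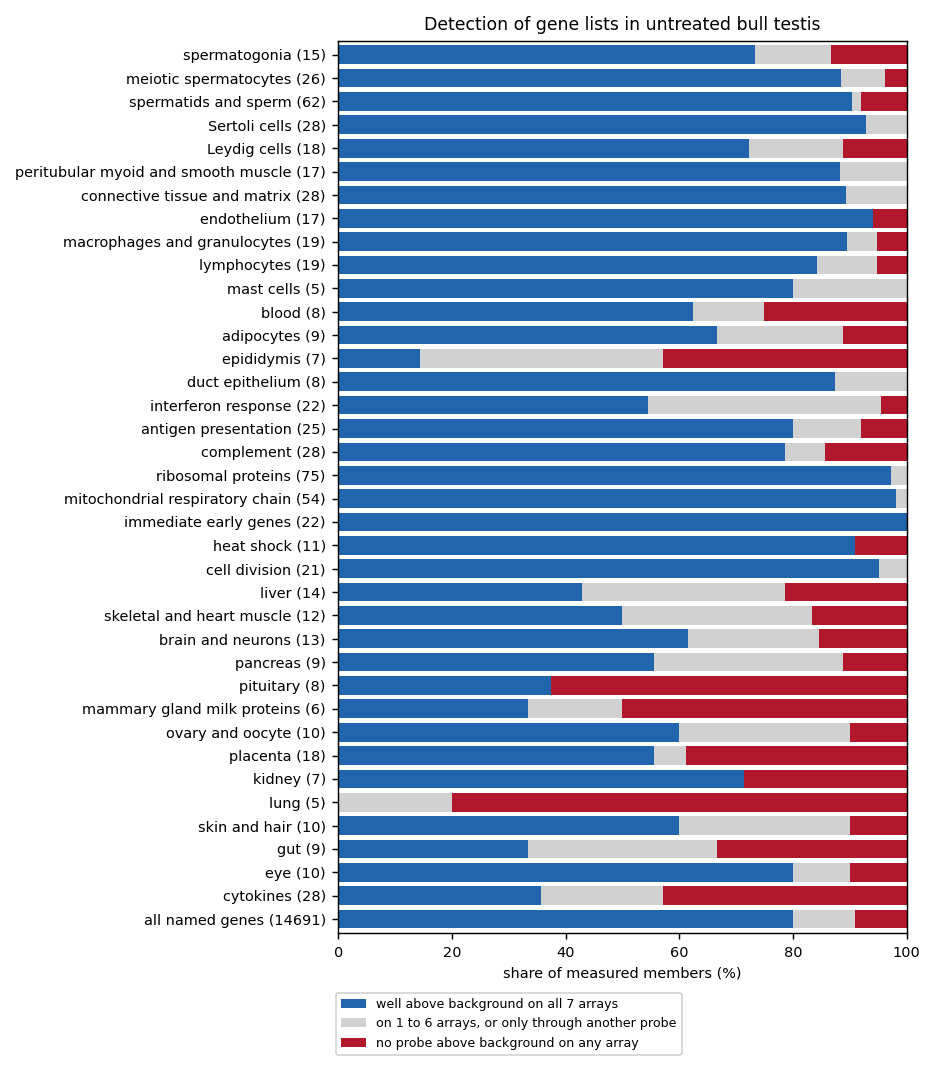
Share of the measured members of each gene list (percent, with the number of members in brackets) that was well above background on all 7 arrays, on some, or undetected. On all arrays were 92.9% of Sertoli, 73.3% of spermatogonial and 72.2% of Leydig genes, against 80.0% of all genes. Lung and pituitary genes were mostly undetected, at 80.0% and 62.5%, against 9.06% of all genes.

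The spread between animals was small for most genes. The median SD was 0.322 over the 7 animals, and 0.261 without control 17, beside a median SD of 0.159 between the replicate spots of a probe on 1 array. Of the 11748 genes, 83.2% had an SD above that of their replicate spots. The middle of the distribution was narrow, with the 10th percentile of the SD at 0.173 and the 90th at 0.592. Spread fell with level: over the 2937 genes of lowest level the median SD was 0.374, and over the 2937 of highest level 0.291. None of the 100 brightest genes had an SD above 1, and their median SD was 0.278.

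The steadiest of the brighter genes was CYBC1, a chaperone of the phagocyte oxidase, with an SD of 0.0356 and values from 1.40 to 1.48. USP47, a deubiquitinase, had an SD of 0.0459, and DYNLRB1, a dynein light chain, 0.0534. COX3 had an SD of 0.0602 at a mean of 7.42. CCDC97, NDUFC2 of respiratory complex I, KAT14, TMEM214, REV3L of DNA polymerase zeta and the splicing helicase DHX8 completed the 10, all with SDs of at most 0.0663. All but KAT14 and DHX8 had an SD below that of their own replicate spots, which reached 0.205 for TMEM214.

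An SD above 1 was found in 147 of 11748 genes (1.25%). Without control 17 it was found in 49 of 11759 (0.417%), and 45 genes were in both sets. With a normexp background correction the count over 7 animals was 1210, and the cause was not tested. In 70 of the 147 genes control 17 stood apart above the other 6 animals, and in 0 it stood apart below. Apart means that the gap to the nearest neighbour took a larger share of the range than the 95% critical value of Dixon's test allows. The 147 genes were chosen for their spread over values that include control 17, so the count of 70 is no test. Over all genes control 17 stood apart in 972 (8.27%), high in 557 (4.74%) and low in 415 (3.53%), and each other animal in 13 to 100. Among other probes of genes with an SD above 1, 6 were well above background on all arrays. Of these 6, 5 followed the first probe at r above 0.7, against 23.2% of 1035 other probes over all genes. An SD above 1 was itself found in 3 of the 6. A wide spread can itself raise r, so genes chosen for spread are no like set, and nothing is read from that difference.

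**Figure D3:**
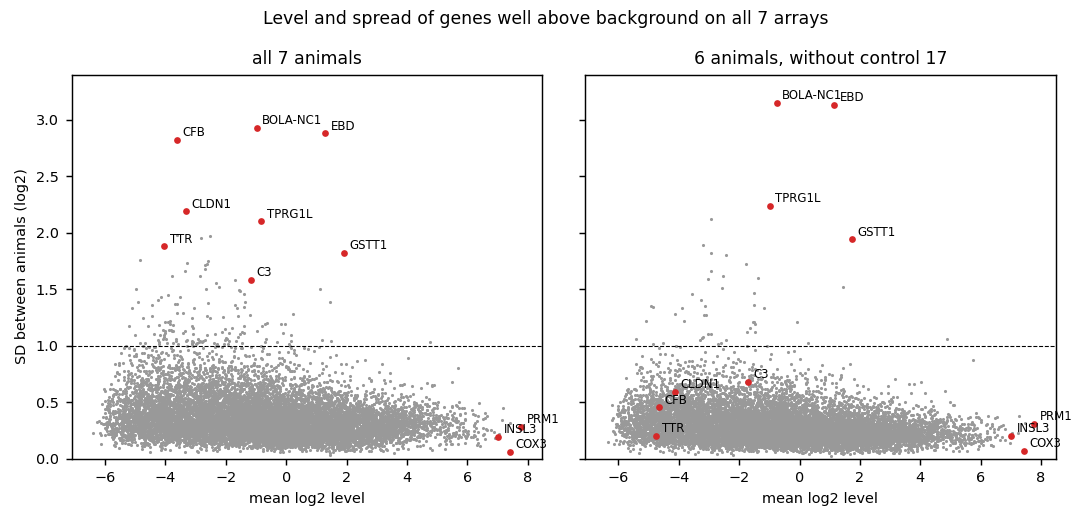
Mean log2 level (horizontal) and SD between animals (vertical, log2) of genes well above background on all 7 arrays, with 7 animals on the left and without control 17 on the right. The dashed line marks an SD of 1; CFB, CLDN1, TTR and C3 drop below it when control 17 is left out, while BOLA-NC1, EBD, TPRG1L and GSTT1 remain above it.

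The 25 genes of widest spread fell into 2 kinds. In 13 of them control 17 alone was high. CFB, factor B of the alternative complement pathway, was at 2.71 in control 17, -4.90 in 18, -4.70 in 20, -4.15 in 21, -4.78 in 22, -5.34 in 23 and -4.18 in 24. The difference between control 17 and the mean of the others was 7.38 log2 units, and the SD fell from 2.82 to 0.452 when it was left out. C3, the central complement protein, was at 2.13 in control 17 and between -2.70 and -0.83 in the others.

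CLDN1, a claudin of tight junctions, stood at 1.48 in control 17 and between -4.64 and -3.05 in the others, and its second probe gave the same pattern (r = 0.999). CLDN3 stood at -0.96 against -6.07 to -4.93. PAX8, a transcription factor of thyroid, kidney and reproductive duct epithelium, stood at 0.36 against -4.26 to -3.66. The surface peptidases MME, neprilysin, and ANPEP, aminopeptidase N, were at 0.81 and 1.08, against -4.72 to -3.84 and -3.57 to -3.02. TTR, transthyretin, the carrier of thyroid hormone and of retinol-binding protein, stood at 0.21 against -5.13 to -4.57. TPD52L1, ANXA3, an annexin, CPE, the prohormone carboxypeptidase, LOXL4, a lysyl oxidase, and CYYR1 had control 17 between -0.29 and 1.13 and the other 6 between -5.06 and -2.39.

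In the other 12 genes the spread did not come from control 17 alone. BOLA-NC1, annotated as a non-classical MHC class I gene, had the largest SD, 2.93. It was at 3.25 in control 21, 1.63 in 22 and 1.14 in 20, and at -2.32 in 17, -2.57 in 24, -3.72 in 23 and -4.23 in 18, so 3 animals were high and 4 low with nothing between -2.32 and 1.14. MHCLA1, an MHC class I-like gene, was at 1.03 in control 22 and between -4.97 and -2.23 in the others, and its other probe, well above background on 4 arrays, followed it (r = 0.91). EBD, an enteric beta-defensin of the antimicrobial peptides, was at -5.13 in control 18 and between 1.78 and 3.14 in the other 6.

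A few genes showed 2 levels with a wide gap. TPRG1L was at -3.83 in control 20 and -3.94 in control 22, and between 0.21 and 0.64 in the other 5. GSTT1, a glutathione transferase, was at -2.06 in control 20 and between 1.78 and 3.45 in the other 6. IGFLR1, a receptor of the IGF-like family, was at 0.75 in control 22 and -0.13 in control 17, and between -3.90 and -3.36 in the others. LDLRAD3, a membrane receptor, was at 1.22 in control 23 and between -3.75 and -2.88 in the other 6. OR6C264, an olfactory receptor gene, was at 0.14 in control 18 and -0.62 in control 17, and between -4.18 and -3.36 in the others. TATDN2 was at -4.14 in control 20 and -3.70 in control 21, and between -1.25 and -0.24 in the rest.

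RGS1, a regulator of G protein signals in lymphocytes, RRH, peropsin, and MLANA, a melanocyte antigen, were spread more evenly. RGS1 ranged from -5.79 in control 21 to -0.64 in control 17, RRH from -5.03 to -1.03 and MLANA from -5.21 to -0.92, both highest in control 24. The 3 highest animals were 18, 23 and 24 in both RRH and MLANA.

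Without control 17, 12 of the 25 widest genes were shared with the list over 7 animals, and 13 were added. ANGPT1, the ligand of the endothelial receptor TEK, was at -4.59 in control 18 and between -1.50 and -0.40 in the others. SERPIND1, heparin cofactor II, was at -1.45 in control 24 and between 0.99 and 2.61 in the other 6. CHP2, a calcineurin-like protein, was at -0.72 in control 18 and between -4.68 and -3.52 in the others. SLC50A1, a sugar transporter, had 4 animals between -0.59 and 0.03 and 3 between -2.94 and -2.68. VLDLR, a lipoprotein receptor, likewise had 4 animals between -0.64 and 0.11 and 3 between -2.95 and -2.68. GSTCD was lowest in controls 18 and 24, at -4.74 and -4.16, with the others between -2.74 and -0.96, and its other probe followed it (r = 0.991). PRSS2, AVIL, CHIA, BRSK1, EXOC3L4, CNTN6 and ADH4 had SDs of 1.28 to 1.40 without control 17, and none had a single animal apart.

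**Figure D4:**
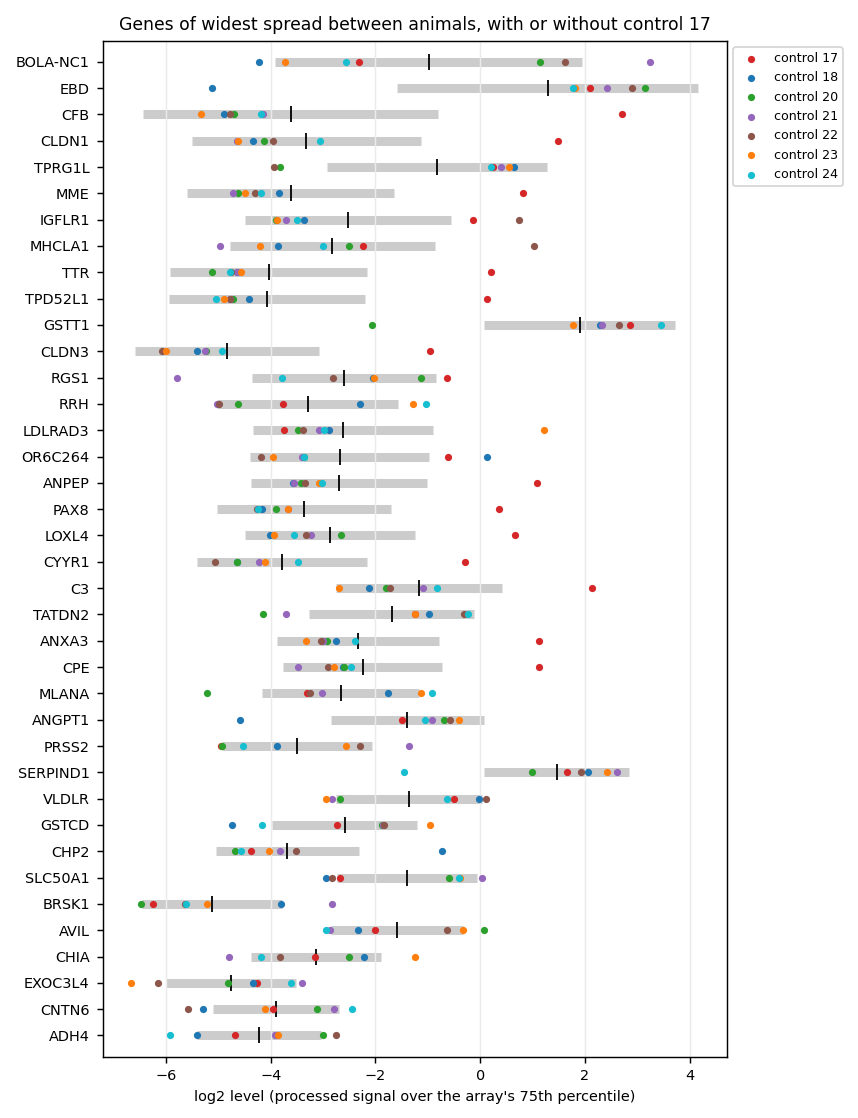
Levels in each control animal (log2, relative to the array's 75th percentile) of the 38 genes with the widest spread over 7 animals or over the 6 without control 17. Black ticks are means and grey bars 1 SD on each side; in CFB, CLDN1, MME and TTR only control 17 lies to the right, in TPRG1L controls 20 and 22 lie to the left, and in BOLA-NC1 3 animals lie above 1 and 4 below -2.

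The gene lists were also followed animal by animal, as the mean over a list's measured members of values centred on each gene's mean. The spermatid and sperm list had its lowest mean in control 17, at -0.73, with control 23 highest at 0.47 and the other 5 between -0.03 and 0.22. Control 17 was lowest in 54 of the 56 members measured on all arrays, against 37% of all genes, and lay more than 1 unit below the mean of the others in 19 of 56, against 4.95%. The meiotic list ran the same way, at -0.55 in control 17 and -0.13 to 0.21 in the others, and the spermatogonial list was at -0.13 against -0.09 to 0.10. Genes of cell division had -0.40 in control 17 and -0.10 to 0.15 in the others; PLK1, a mitotic kinase, was at 3.97 against 4.49 to 4.91.

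Lists of the tubule wall and the stroma ran the other way in control 17. The peritubular and smooth muscle list was at 1.28, with the others between -0.46 and 0.21, and control 17 was more than 1 unit above the mean of the others in 12 of 15 genes, against 8.46% of all genes. SYNPO2, an actin-binding protein, was at 0.43 against -2.53 to -2.03, and MYL9, a myosin light chain, at 3.38 against 1.88 to 2.43. MYLK, the kinase of that chain, was at 4.22 against 2.38 to 2.94, and its other probe followed it (r = 0.95). The matrix list was at 1.15 against -0.35 to 0.08, with COL3A1 at 1.47 against -1.53 to -0.35 and DCN, on its brighter probe, at 3.39 against 0.73 to 1.55. POSTN, periostin, read -2.56 in control 17 and between -7.76 and -7.05 in the others, and was well above background on 2 arrays. The endothelial list was at 0.65 against -0.24 to 0.04, and CDH5, the cadherin of endothelial junctions, at -2.50 against -4.63 to -3.79. Control 24 was next above the rest in the peritubular and matrix lists.

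The duct epithelium list was at 1.03 in control 17 and between -0.33 and 0.00 in the others. KRT8 was at 2.58 against -0.58 to 0.14 and KRT7 at -1.56 against -5.51 to -3.42, and PAX8, given above, is also a member. In 3 of the 7 members on all arrays, PAX8, KRT8 and KRT7, control 17 was more than 1 unit above the mean of the others. That compares with 8.46% of all genes, and control 17 was lowest in 2 of the 7. EPCAM, an epithelial adhesion molecule of the same list, was lowest in control 17, at 1.27 against 1.63 to 2.30, so its members did not all run one way. All 8 members of that list were above background on at least some arrays. The part of duct epithelium in the values of control 17 was not tested.

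Immune and defence programmes were also higher in control 17. The interferon list was at 1.26 against -0.47 to -0.04. Only 12 of its 22 measured members were on all arrays and its median level was -4.82, so members near background enter that mean. In it ISG15, a ubiquitin-like modifier, was at 0.59 against -2.62 to -2.06, and MX1, an antiviral GTPase, at -1.16 against -4.69 to -3.77. The antigen presentation list was at 1.1 against -0.47 to 0.13. In it BOLA-DRA, an MHC class II chain, was at 3.84 against 1.35 to 1.92, and BOLA-DQA2 at 4.39 against -0.01 to 1.16, though the other BOLA-DQA2 probe was above background on no array. The complement list was at 1.1 against -0.48 to 0.22, with C2 at 1.20 against -2.61 to -1.14. Macrophage and lymphocyte lists were at 0.48 and 0.40, closer to the next animals, at 0.17 and 0.20. Ribosomal protein genes were at 0.46 against -0.17 to 0.04, with control 17 highest in 54 of 73 members, against 23.8% of all genes. The part that the makeup of the sample, RNA quality or the array of control 17 had in these values was not tested.

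In the Leydig list control 17 lay inside the range of the other animals, at -0.18 against -0.23 to 0.25. Respiratory chain genes were at -0.12 against -0.08 to 0.08, and heat shock genes at 0.17 against -0.18 to 0.10. Sertoli genes were at 0.32 against -0.23 to 0.18, with control 17 apart in TF and KRT18 and highest in 13 of 26 members, against 23.8% of all genes. Immediate early genes, which respond quickly to stimuli, were at 0.57 in control 17 and -0.33 to 0.24 in the others, and control 17 was more than 1 unit above the mean of the others in 8 of 22 members, against 8.46% of all genes. FOS ranged from -4.98 in control 23 to -1.49 in control 17, while FOSB, at 1.21 to 2.93, and DUSP1, at 0.33 to 1, had control 17 within the range of the others. The other FOSB probe lay between -1.04 and -0.45 and did not follow the first (r = -0.319 over the 7 arrays).

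**Figure D5:**
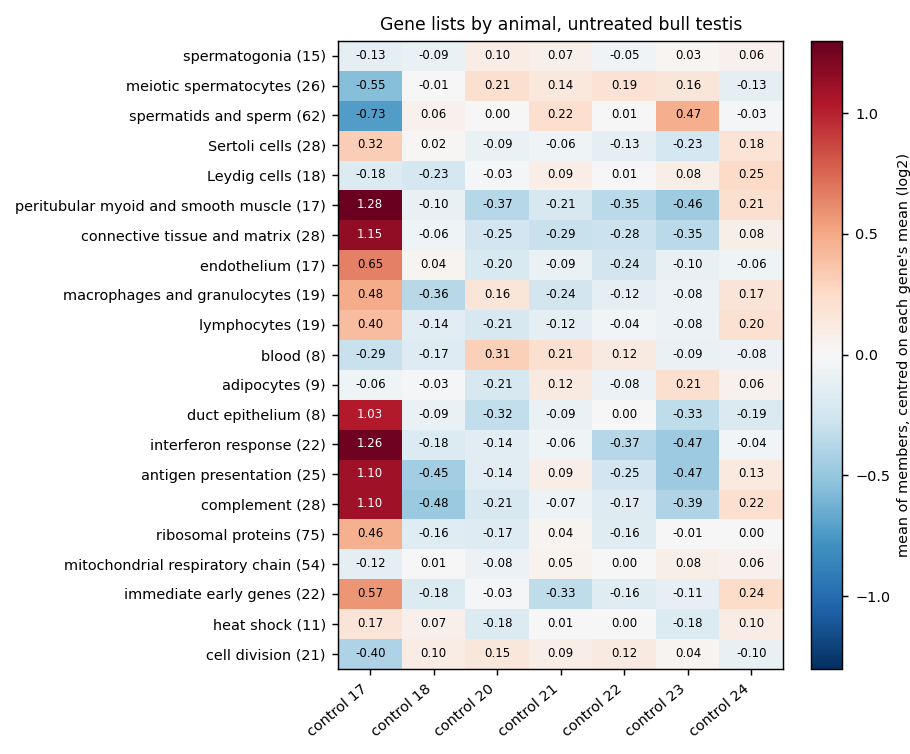
Mean of each gene list's members in each control animal, centred on every gene's mean over the 7 animals (log2, colour and number), for lists with at least 50% of members on all arrays and at least 8 measured, lists of other organs left out. Control 17 is lowest for spermatids and sperm (-0.73) and highest for peritubular myoid (1.28), interferon (1.26) and matrix (1.15) lists.

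The scan day was tested as a factor across 12578 genes well above background on at least 4 arrays, with limma and Benjamini-Hochberg adjustment. It called 1 gene (0.00795% of those tested), TPRG1L, with an adjusted p of 0.00283, and 577 genes (4.59%) had an unadjusted p under 0.05. Both animals with low TPRG1L, 20 and 22, were scanned on the same day and shared a slide, so animal, slide and day cannot be told apart there, and the call was lost when either was left out (lowest adjusted p 0.171 without control 20 and 0.202 without control 22, in limma fits that leave a day with 1 array). Without control 17 limma called 2 genes, TPRG1L and AZI2, an adaptor of innate immune kinases named here after its values were seen, and 1624 genes (12.9%) had an unadjusted p under 0.05. AZI2 was at -8.28 and -7.70 in controls 20 and 22, -7.35 in 17, and between -3.95 and -2.97 in the other 4. Its 3 low values lie within the -8.44 to -7.06 of CSN1S1, an undetected gene. AZI2 could thus enter the test through the 4 arrays where it was high, and nothing is read from its call. The median SD within scan days was 0.318, beside 0.322 over all animals. Both include control 17, and the SD within scan days is not given without it, so nothing about scan day is read from their closeness.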

How the data were processed

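Signal intensity was read from the scanner files of the 7 control arrays, deposited by the authors as Agilent Feature Extraction 9.5.1.1 output, per the file headers. The processed intensity is background-subtracted and detrended over the slide, from a pair of scans at high and low sensitivity, per the series' design text. The submitters' processing notes name R 2.11.1 without its role. The authors' deposited value table followed each control's own scanner file and served as an alternative; its 8 columns of treated animals were not used.

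Control spots were left out, outlier-flagged spots were masked, the 2 spots of most probes were averaged, and log2 intensity minus the array's 75th percentile was used. A gene was read through its brightest probe. Probes were named through accession, gene number, symbol or description with RefSeq tables of assembly ARS-UCD2.0, for names only. For 2796 of the 16319 named probes the symbol is that of a human relative given in the probe's description. The probes of GAPDHS, GFRA1, GRIN1, FOSB, SYNPO2, TPD52L1, CYYR1, SERPIND1 and GSTCD are among these. No coordinates are printed, since no label or header names the build of the array design. Scan days were tested with limma 3.58.1 in R 4.3.3 (lmFit, eBayes, Benjamini-Hochberg, threshold 0.05), after a test on simulated data. Depth has no meaning for arrays; the number of arrays limits the precision. The p-values measure the spread between these samples only.

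Genes were named by rule: the 25 of highest level, the 25 of widest spread with and without control 17, the 10 steadiest above the 75th percentile, and, of each list, some of the 4 brightest, the 3 most variable and the undetected members. The members and lists were chosen with earlier results of these data known. Alternatives were normexp with an offset of 50, quantile and median scaling, the deposited table, no masking, the mean of a gene's probes, other detection rules and leaving out each animal. Results for some genes that the rule names are not reported here.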

Additional observations from a re-analysis of the deposited data

Results flagged for a closer look

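One animal lay apart from the other 6, by the gap to its nearest neighbour, in 58 of 236 groups of values examined (levels of named genes, list means, and 2 measures of the arrays), among them genes named for their wide spread. Chance flags about 1 in 20 groups, which would be 11.8 of 236, but many of these genes were named for their spread, so that share is no measure for them and no excess is read from the count. Control 17 was that animal in 48, control 18 in 4, control 20 in 3, control 23 in 2 and control 24 in 1. No cause was tested.

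Control 17 was high in the complement genes CFB (2.71), C3 (2.13) and C2 (1.20), in the claudins CLDN1 (1.48) and CLDN3 (-0.96), and in the keratins KRT8 (2.58) and KRT18 (1.26). It was high in PAX8 (0.36), MME (0.81), ANPEP (1.08), TTR (0.21), TPD52L1 (0.14), ANXA3 (1.13), CPE (1.13), LOXL4 (0.66) and CYYR1 (-0.29). Of the tubule wall and stroma it was high in MYLK (4.22), MYL9 (3.38), SYNPO2 (0.43), MGP (6.15), DCN (3.39), COL3A1 (1.47) and POSTN (-2.56), and of endothelium in ROBO4 (1.07) and CDH5 (-2.50). Among immune genes it was high in BOLA-DRA (3.84), BOLA-DQA2 (4.39), ISG15 (0.59), MX1 (-1.16), IRF9 (0.91), XAF1 (0.38) and IL7 (-5.66). TF (4.28) and RNASE10 (-4.17) were high there as well.

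Control 17 was low in the germ cell genes DAZL (-0.76), SYCE1 (2.53), PIWIL1 (-1.65) and TEKT5 (-2.07), in the granulocyte gene S100A12 (0.21) and in the epididymal gene CES5A (-5.10). Its list means lay apart for spermatids and sperm (-0.73), peritubular myoid and smooth muscle (1.28), connective tissue and matrix (1.15), endothelium (0.65), duct epithelium (1.03), interferon response (1.26), antigen presentation (1.1) and ribosomal proteins (0.46).

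Control 18 lay apart in EBD (-5.13), ANGPT1 (-4.59), CHP2 (-0.72) and TMEM214 (2.94), control 20 in GSTT1 (-2.06), H1-10 (7.14) and USP47 (1.54), control 23 in LDLRAD3 (1.22) and DDX4 (3.04), and control 24 in SERPIND1 (-1.45). TMEM214 and USP47 are among the steadiest genes, with ranges of 0.18 and 0.14 log2 units.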

How the results depend on the processing

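The count of genes with an SD above 1 was 147; it was 1210 with normexp (the cause was not tested), and 236 with genes above background on at least 4 arrays, when 13 of the 25 widest genes were shared. Leaving out 1 animal gave 49 (without control 17) to 193 such genes, 12 to 23 shared widest genes, a median SD of 0.261 to 0.339, and 23 to 25 shared genes of highest level. Undetected genes numbered 1331, 448 by the scanner's weaker flag for positive signal, 808 where any spot counted, and 1333 to 1486 with 1 animal left out, when 11754 to 11871 genes were on all arrays. Scan day called 1 gene, 0 with normexp (222 genes at an unadjusted p under 0.05 in limma), and 0 to 2 with 1 animal left out, 0 without control 20 (217 genes at that p) or 22 (327), where a day is left with 1 array assumed to vary like the others. Median scaling raised the median of all genes by 2.58, normexp by 0.28, and the mean over probes changed it by -0.28, but normexp was no even shift. With it 22 list medians moved and 15 did not, the lung list by the most (-8.40 to -3.92), 6 of the 25 highest levels moved (PRM1 from 7.78 to 6.97), and 21 of these 25 genes were shared. The SDs of the 38 widest genes stayed within 1.5 times under all 6 alternatives of processing, and when 1 animal was left out 21 such SDs moved by more and 245 did not. No paired analysis was possible because only 1 group is described and no groups are compared. Signal over background limits the calls of undetected genes.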
